A study of Mus musculus with 12 samples.

Results

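The genes described here encode the extracellular matrix, the integrins that hold cells to it and the enzymes that cross-link, process and degrade it. They were chosen by symbol alone. The patterns took the collagen chains (Col followed by a number, the letter a and a number), laminin chains (Lama, Lamb, Lamc), symbols that begin with Itga or Itgb, the Adamts and Mmp metalloproteases, the Timp inhibitors, and Lox with its relatives Loxl1 to Loxl4. The single genes Has2, Tnc, Adam12, Nid1, Nid2, Fn1, Npnt and Sparc were added. The table of 12774 gene symbols held 116 members: 33 collagen chains, 19 Mmp, 14 Adamts, 14 Itga, 9 laminin chains, 7 Itgb, 5 lysyl oxidases, 3 Timp, the 8 single genes and 4 symbols that begin with Itgb but name no integrin subunit (Itgb1bp1, Itgb1bp2, Itgb3bp and Itgbl1).

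Collagens form fibrils and networks, and laminins, nidogens and collagen chains of the Col4 type build basement membranes. Integrins pair an alpha with a beta chain, bind these proteins outside the cell and connect them to the actin skeleton. Matrix metalloproteases and Adamts enzymes cleave matrix proteins, and Timp proteins block such enzymes. In the developing brain, tenascin and hyaluronan fill much of the space around progenitor cells, and thyroid hormone acts there through nuclear receptors that bind DNA and respond to T3 (triiodothyronine, the active hormone).

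Polyadenylated RNA of C17.2 cells, neural progenitors of the mouse kept as a cell line, was measured in 12 libraries by digital gene expression, a method that counts 1 short tag for each transcript copied. The C17.2b line stably carried a tagged thyroid hormone receptor beta and the C17.2a line a tagged receptor alpha, so the receptor and the line cannot be told apart. Cells of each line received T3 at 1e-07 M or were left untreated for 6, 12 or 24 h, and all of them had first been kept without serum for 24 h. Each line, treatment and time had 1 library, and no label gives separate cultures. For T3 the only repeats were 6 pairs, each of a library with T3 and its untreated counterpart. The p-values for T3 therefore measure the spread between these pairs, which may be technical in part. Comparisons of untreated cells used the 6 untreated libraries alone. Their only repeats were the 3 times (between lines) or the 2 lines (24 h against 6 h), and their p-values measure the spread left between those.

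The deposited unit is RPM, a gene's tags scaled to a library total of 1e+06. Low values imply library totals from 7.125e+06 tags (C17.2b with T3 at 24 h) to 1.91e+07 (C17.2b untreated at 6 h), so that 3 tags, taken as the limit of detection, equal 0.157 to 0.421 RPM. This limit covers counting error only. Rank correlations between the 2 libraries of a pair were taken over genes that reached 1 RPM in at least 1 library. The value was 0.918 for C17.2a at 24 h, against 0.969 to 0.982 for the other 5 pairs. Across the 92 such members it was 0.92, against 0.948 to 0.974. The C17.2a 24 h pair thus stood apart, which does not show which of its libraries did, and results are given with and without it. Of the progenitor markers, Nes lay at 70.23 to 641.7 RPM, Sox2 at 61.96 to 305.9 and Vim at 1112 to 4941, while the endothelial marker Flt1 and the microglial marker Cx3cr1 reached no more than 1.49 and 0.42 RPM. Because cells were measured in bulk, fewer cells of a type and less RNA per cell cannot be told apart.

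Of the 116 members, 92 reached 1 RPM in at least 1 library and 24 did not. The 24 included 9 of the 19 Mmp genes, among them the collagenase Mmp13, the stromelysins Mmp3 and Mmp10 and the macrophage elastase Mmp12, each at 0.31 RPM or less in every library. The near-identical Mmp1a and Mmp1b had the same value in 11 of 12 libraries and are uncertain. Only genes that reached 1 RPM in 3 or more of the libraries fitted were tested, which kept 84 members for T3 and 79 for the untreated cells. Npnt and Mmp9 reached 1 RPM only in libraries with T3, and Has2 only in untreated ones. They thus entered the test of T3 through the group where they are high, and the counts for T3 below include them.

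On the scale log2(RPM + 1), where a difference of 1 is a doubling for all but low genes, T3 raised 8 of the 84 tested members and lowered 8 across the 6 pairs (limma, Benjamini-Hochberg adjusted p under 0.05). That was 9.52% in each direction, against 4.09% higher and 2.35% lower among all 10577 genes tested. The genes that rose were the integrin ligand Npnt, the collagen chains Col15a1, Col11a2, Col9a3 and Col19a1, and the proteases Adamts17, Adamts2 and Adamts14. The genes that fell were the hyaluronan synthase Has2, tenascin C (Tnc), the proteases Adam12, Adamts1 and Mmp15, the nidogen Nid1 and the collagen chains Col18a1 and Col5a2. The median difference of the members was -0.073, against -0.0071 for all genes. Without the C17.2a 24 h pair, 12 members were higher and 11 lower, including all 16 of these, against 9.14% and 5.81% of all genes.

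Npnt, which encodes nephronectin, a basement membrane ligand of the integrin that pairs alpha 8 with beta 1, showed the largest difference of all members. It had 6.92, 6.46 and 10.93 RPM in C17.2b with T3 at 6, 12 and 24 h, against 0.16, 0.09 and 0.27 RPM without T3. In C17.2a it had 7.06, 8.07 and 2.86 RPM with T3, against 0.31, 0.09 and 0.10 RPM without. Every T3 library exceeded every untreated one. The untreated values amount to 1 to 4 implied tags each, at or near the limit of detection. The shared log2 difference was 2.71 (SE 0.19, n = 6 pairs, limma adjusted p 0.000133), and 2.89 without the C17.2a 24 h pair. Because the untreated values are near 0, the added 1 RPM holds this difference down. Npnt reached 1 RPM in libraries with T3 alone and entered the test through them. The alpha 8 chain that binds nephronectin, Itga8, was scarce, at no more than 2.03 RPM in any library, and was not tested.

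Col15a1 encodes a collagen of the basement membrane zone. It had 34.58, 53.67 and 98.54 RPM in C17.2b with T3 at 6, 12 and 24 h, against 12.15, 11.03 and 14.92 RPM without, and 1.99, 2.76 and 5.84 RPM in C17.2a with T3, against 0.93, 1.60 and 1.74 RPM without. Within each line every T3 library exceeded every untreated one, while the untreated C17.2b libraries exceeded all C17.2a libraries. The shared log2 difference was 1.46 (SE 0.28, limma adjusted p 0.0144), from 1.44, 2.18 and 2.64 in the C17.2b pairs and 0.63, 0.53 and 1.32 in those of C17.2a. The added 1 RPM holds the C17.2a values down, and by the ratio of tags the C17.2a 24 h pair (3.13-fold) exceeded the C17.2b 6 h pair (2.84-fold). The call ended without the C17.2b 6 h pair (limma adjusted p 0.0534) or the C17.2b 12 h pair (0.0669).

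Promoters of both genes, and of Tnc as the member with the largest tested fall for which RefSeq gives one, are shown because T3 receptors bind DNA at copies of a short motif. The 250 bases before the start are from RefSeq on GRCm38.p6, 5′ to 3′ on the gene's strand. Npnt and Tnc each have 2 listed starts, of which the outer one is shown. The deposited table holds no coordinates. Capitals mark AGGNCA, a relaxed form of the receptor half-site AGGTCA, on either strand, where N is any base.
Npnt, chr3:132950292-132950541, minus strand: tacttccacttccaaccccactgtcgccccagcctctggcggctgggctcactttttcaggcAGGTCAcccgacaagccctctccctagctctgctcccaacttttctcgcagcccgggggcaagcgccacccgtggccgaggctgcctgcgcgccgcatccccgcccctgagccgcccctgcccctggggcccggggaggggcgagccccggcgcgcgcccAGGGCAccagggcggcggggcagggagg
Col15a1, chr4:47207762-47208011, plus strand: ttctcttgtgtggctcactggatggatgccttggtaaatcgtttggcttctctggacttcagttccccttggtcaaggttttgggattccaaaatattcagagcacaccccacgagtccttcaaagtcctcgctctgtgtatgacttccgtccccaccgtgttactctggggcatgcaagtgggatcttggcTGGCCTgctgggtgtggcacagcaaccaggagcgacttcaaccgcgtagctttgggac
Tnc, chr4:64047016-64047265, minus strand: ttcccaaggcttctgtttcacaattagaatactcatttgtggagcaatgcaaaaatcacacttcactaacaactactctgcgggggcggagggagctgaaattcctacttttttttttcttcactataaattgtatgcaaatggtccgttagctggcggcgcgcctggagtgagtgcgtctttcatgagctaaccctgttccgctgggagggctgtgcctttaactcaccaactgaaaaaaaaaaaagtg
The Npnt promoter held 2 matches, of which the first is AGGTCA itself and begins 188 bases before the start. That of Col15a1 held 1 match on the opposite strand, and that of Tnc held none. Promoters were given for 79 of the 116 members. AGGTCA lay in 12.6% of the members' 87 promoters and in 14% of all 32851 promoters of this length, and AGGNCA in 55.2% and 51.3%. Among the promoters of the 8 members that rose, AGGTCA was present for Npnt alone, and it was present for none of the members that fell. These matches describe the letters of the window and are not binding sites. Has2, Adam12, Col9a3 and Col5a2 had no entry.

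Of the other collagen chains that rose, Col9a3 and Col11a2 encode parts of minor collagens best known from cartilage fibrils. Col9a3 had 5.96, 7.70 and 8.83 RPM in C17.2b and 8.75, 9.06 and 14.43 RPM in C17.2a with T3, against 3.98, 4.39 and 4.61 RPM and 2.86, 3.46 and 3.16 RPM without. No T3 library overlapped an untreated one, and the shared log2 difference was 1.06 (SE 0.19, limma adjusted p 0.0116), a call that ended without the C17.2a 6 h (0.051) or 12 h pair (0.05). Its gene overlaps Tcfl5 on the opposite strand, and whether the tags were assigned by strand is not given in the sources used here.

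Col11a2 had 2.39 to 6.45 RPM in 5 T3 libraries and 0.36 RPM in that of C17.2a at 24 h, against 0.18 to 1.02 RPM without T3. Only that 1 T3 library overlapped the untreated ones. The shared log2 difference of Col11a2 was 1.32 (SE 0.32, limma adjusted p 0.0466), and it was 1.69 (SE 0.17, limma adjusted p 6.66e-05) without the C17.2a 24 h pair. Leaving out any single one of the other 5 pairs ended the call (limma adjusted p 0.131 to 0.164). Col19a1, a collagen associated with fibrils, differed least, by 0.38 (SE 0.08, limma adjusted p 0.0309), with a positive sign in all 6 pairs (0.24 to 0.65). Its call ended without any single one of the pairs other than C17.2a 24 h (limma adjusted p 0.0712 to 0.103).

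**Figure D1:**
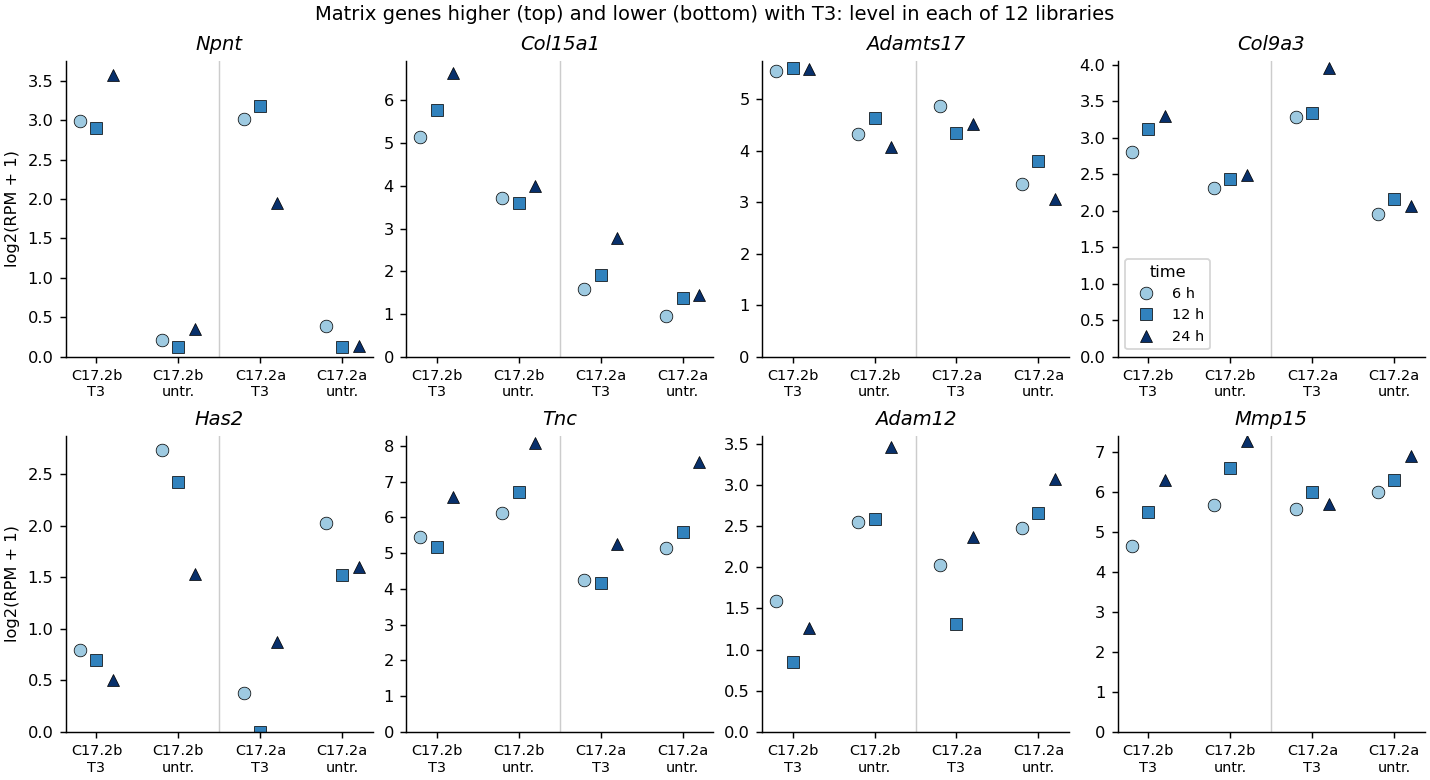
Levels of 8 matrix genes in each of the 12 libraries, as log2(RPM + 1) on an axis from 0, by line and treatment (untr., untreated), with 1 point per library and the marker giving the time. Npnt and Col9a3 had every T3 library above every untreated one, Has2 and Adam12 had every T3 library below, and Col15a1, Adamts17, Tnc and Mmp15 had the same order within each line and time.

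Among the Adamts proteases, 3 of 9 tested members rose and 1 fell, against 4.09% and 2.35% of all genes tested. Adamts2 and Adamts14 encode procollagen N-proteinases, which remove the amino-terminal propeptide of fibrillar collagens, and the role of Adamts17 is less well defined. Adamts17 had 45.97, 47.91 and 46.82 RPM in C17.2b and 28.33, 19.39 and 21.83 RPM in C17.2a with T3, against 19.07, 23.77 and 15.73 RPM and 9.20, 12.88 and 7.35 RPM without. Within each line the groups did not overlap. The shared log2 difference was 1.21 (SE 0.15, limma adjusted p 0.00217), and it stayed past the threshold in all 13 alternative settings tried.

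Adamts14 had 17.77, 11.60 and 41.91 RPM in C17.2b and 25.25, 23.43 and 78.60 RPM in C17.2a with T3, against 7.39, 5.92 and 30.38 RPM and 12.91, 14.12 and 34.19 RPM without. Its T3 libraries were higher at each time in both lines, although T3 libraries of 6 and 12 h overlapped untreated ones of 24 h, and the shared difference was 0.88 (SE 0.13, limma adjusted p 0.00465). Adamts2 had 5.85, 13.28 and 45.14 RPM in C17.2b with T3, against 3.72, 2.42 and 9.63 RPM without, and 15.41, 19.53 and 43.18 RPM in C17.2a with T3, against 9.51, 10.66 and 34.19 RPM without. The shared difference of Adamts2 was 1.08 (SE 0.26, limma adjusted p 0.0434), and it lost its call without any single one of the pairs other than C17.2a 24 h (limma adjusted p 0.0733 to 0.139).

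Adamts1, which cleaves the proteoglycans aggrecan and versican, moved the other way. It had 39.58, 55.26 and 91.11 RPM in C17.2b and 45.92, 51.74 and 105.56 RPM in C17.2a with T3, against 129.11, 99.01 and 127.10 RPM and 114.20, 96.12 and 104.72 RPM without. In both lines the difference was widest at 6 h and narrowest at 24 h, where it was 0.01 in C17.2a. The shared difference was -0.86 (SE 0.20, limma adjusted p 0.0341), and -1.03 without the C17.2a 24 h pair, while leaving out any other single pair ended the call (limma adjusted p 0.0651 to 0.127).

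Has2, the enzyme that makes most hyaluronan in developing tissues, fell. It had 0.74, 0.62 and 0.42 RPM in C17.2b with T3 at 6, 12 and 24 h, against 5.66, 4.39 and 1.90 RPM without, and 0.30, 0 and 0.83 RPM in C17.2a with T3, against 3.09, 1.87 and 2.04 RPM without. The 0 stands for an entry of N/A in the deposited table. No T3 library reached an untreated one. The T3 values equal 7 implied tags or fewer, the shared log2 difference was -1.43 (SE 0.18, limma adjusted p 0.00249), and -1.58 without the C17.2a 24 h pair. Has2 reached 1 RPM in untreated libraries alone and entered the test through them.

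Tnc, the tenascin of stem cell niches and wounds, had 42.56, 34.80 and 93.91 RPM in C17.2b and 18.09, 16.77 and 37.22 RPM in C17.2a with T3, against 68.88, 103.50 and 268.16 RPM and 34.41, 47.17 and 184.13 RPM without. It was lower with T3 at every time in both lines, and it was highest at 24 h in all 4 combinations of line and treatment. The shared log2 difference was -1.39 (SE 0.19, limma adjusted p 0.00347), or -1.21 without the C17.2a 24 h pair, where the difference was -2.28.

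Adam12, a membrane metalloprotease of the ADAM family, had 2.02, 0.80 and 1.40 RPM in C17.2b and 3.08, 1.49 and 4.17 RPM in C17.2a with T3, against 4.87, 5.02 and 10.04 RPM and 4.56, 5.33 and 7.45 RPM without. The groups did not overlap. Its shared log2 difference of -1.23 (SE 0.23, limma adjusted p 0.0136) lost its call without the C17.2b 12 h pair (0.0651) or the C17.2a 12 h pair (0.0552). Mmp15, a metalloprotease anchored in the membrane, had 24.05, 44.19 and 77.23 RPM in C17.2b and 46.81, 62.78 and 50.93 RPM in C17.2a with T3, against 50.28, 96.05 and 152.33 RPM and 62.94, 77.82 and 117.28 RPM without. It was lower with T3 in every pair, by 0.84 (SE 0.14, limma adjusted p 0.00809).

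Basement membrane and fibril genes completed the falls. Nid1, which links laminin to the collagen network, had 7.77, 6.29 and 3.78 RPM in C17.2b and 2.48, 2.41 and 1.31 RPM in C17.2a with T3, against 8.96, 9.87 and 5.70 RPM and 5.26, 5.15 and 3.78 RPM without. All 6 pairs were lower, and the shared log2 difference was -0.67 (SE 0.15, limma adjusted p 0.0284), a call that ended on leaving out the 12 or 24 h pair of C17.2b or the 6 or 12 h pair of C17.2a (limma adjusted p 0.0681 to 0.112). Col18a1, a relative of Col15a1 that yields the fragment endostatin, moved against it. It had 646.6 to 1209 RPM with T3, against 805.3 to 2260 RPM without, with a shared difference of -0.51 (SE 0.11, limma adjusted p 0.0205) that missed the threshold on leaving out the 12 h pair of either line or the 24 h pair of C17.2b (limma adjusted p 0.0624 to 0.0836).

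Col5a2, a chain of the collagen that sets fibril width, had 265.16, 226.36 and 238.57 RPM in C17.2b and 206.93, 178.85 and 198.60 RPM in C17.2a with T3, against 385.29, 372.28 and 358.23 RPM and 273.54, 235.76 and 263.13 RPM without. The groups did not overlap within a line, and the fall of -0.51 (SE 0.08, limma adjusted p 0.00652) was close to even across pairs, at -0.40 in each C17.2a pair and -0.54 to -0.72 in C17.2b. The fibrillar collagen genes Col1a1, Col1a2 and Col3a1 did not pass, at 0.11, 0.26 and -0.07.

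**Figure D2:**
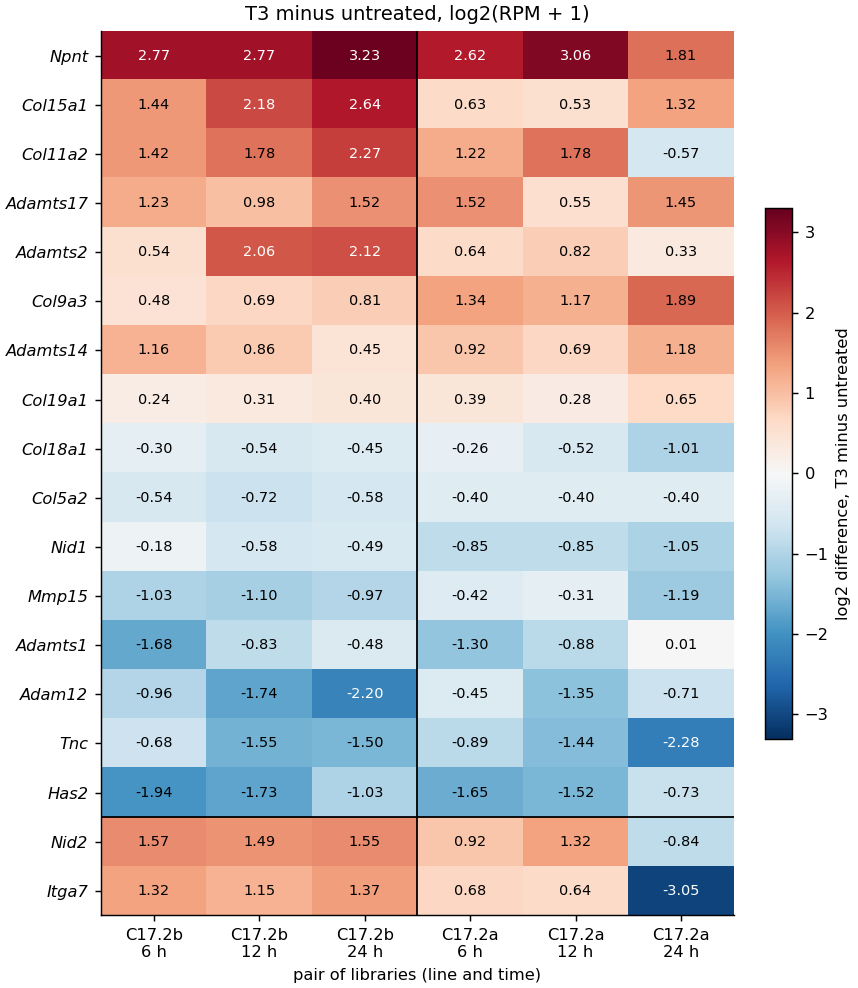
Log2 difference of T3 minus untreated on log2(RPM + 1) in each of the 6 pairs (columns, by line and time) for the 16 members past the threshold and, below the line, Nid2 and Itga7. Red is higher and blue lower with T3, and 14 of the 16 had 1 sign in all pairs, while Col11a2, Adamts1, Nid2 and Itga7 departed in the C17.2a 24 h pair.

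Nid2, the second nidogen, did not pass with all pairs, at 1.0 (SE 0.30, limma adjusted p 0.0987), yet its values were high with T3 in 5 of 6 pairs. It had 30.11, 28.34 and 73.73 RPM in C17.2b with T3, against 9.48, 9.42 and 24.55 RPM without, and 23.36, 28.95 and 31.85 RPM in C17.2a with T3, against 11.91, 11.02 and 57.98 RPM without. The pair that disagreed was C17.2a at 24 h, and without it Nid2 rose by 1.37 (SE 0.11, limma adjusted p 1.99e-05). Nid2 overlaps Rtraf on the opposite strand, so its tags may not all be its own.

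No laminin, integrin, lysyl oxidase or Timp gene passed for the shared response with all 6 pairs. The tested members were 8 laminin chains, 9 Itga, 4 Itgb, 5 lysyl oxidases and 3 Timp. Of all genes tested 4.09% rose and 2.35% fell, so a count of 0 in sets this small is close to that share. Itga7, the alpha chain of a laminin receptor, had 90.66, 87.14 and 98.12 RPM in C17.2b with T3, against 35.77, 38.65 and 37.44 RPM without, and 139.55, 111.26 and 12.64 RPM in C17.2a with T3, against 86.75, 70.98 and 111.77 RPM without. It was higher with T3 in 5 pairs and far lower in C17.2a at 24 h (-3.05). Its shared value was 0.35 (SE 0.52, limma adjusted p 0.796) with all pairs and 1.03 (SE 0.12, limma adjusted p 0.000197) without that pair.

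Leaving out that pair also called Itga3, which with beta 1 binds laminin, at 0.70 (SE 0.18, limma adjusted p 0.0234) and the basement membrane chain Col4a2 at 0.60 (SE 0.12, limma adjusted p 0.00732). Col4a2 overlaps Col4a1 on the opposite strand, so the tags of either may not all be its own. Without the C17.2a 24 h pair 3 more members were called lower. These were Itgav, the alpha chain of vitronectin receptors, at -0.45 (SE 0.10, limma adjusted p 0.00925), Col6a2 at -0.47 (SE 0.13, limma adjusted p 0.0267) and the inhibitor Timp3 at -0.30 (SE 0.08, limma adjusted p 0.0249). Itgb1, the beta chain of most matrix receptors, was lower in all 6 pairs but did not pass, at -0.35 (SE 0.11, limma adjusted p 0.12). The 5 lysyl oxidases, which cross-link collagen and elastin, lay between -0.18 (Loxl3) and 0.07 (Loxl4), and fibronectin (Fn1) at -0.10 (SE 0.14, limma adjusted p 0.789). Laminin chain Lamc1 stood at -0.07 (SE 0.09), Itgb4 at 0.05 (SE 0.09), the gelatinase Mmp2 at -0.10 (SE 0.09), the collagenase Mmp8 at 0.12 (SE 0.08), Timp1 at -0.08 (SE 0.20) and Timp2 at -0.16 (SE 0.14), and none of them passed.

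The sign of the difference was the same in all 6 pairs for 22 of the 84 tested members (26.2%), 9 higher and 13 lower, against 14.3% of all genes tested. Of the 22, 8 did not pass the test: Mmp9 and Itgb1bp1 were higher in each pair, and Col28a1, Col6a2, Itgb1, Itgb3bp, Lama4 and Timp3 lower. For Mmp9 this holds by RPM only, since its implied tags at 6 h were equal with and without T3 in both lines.

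Within the C17.2a line, 3 members were higher and 1 lower with T3, against 0.908% and 0.463% of all genes tested. They were Npnt at 2.50 (SE 0.26, n = 3 pairs, limma adjusted p 0.00496), Col9a3 at 1.47 (SE 0.20, 0.0157), Adamts17 at 1.18 (SE 0.22, 0.0488) and Tnc at -1.54 (SE 0.27, 0.0382). Without the 24 h pair of this line 7 were higher and 4 lower, against 2.8% and 1.65% of all genes. The additional calls were Nid2 at 1.12 (SE 0.15), Col11a2 at 1.50 (SE 0.26), Adamts14 at 0.80 (SE 0.19) and Itga7 at 0.66 (SE 0.12) among those higher, and Has2 at -1.59 (SE 0.26), Adamts1 at -1.09 (SE 0.23) and Nid1 at -0.85 (SE 0.19) among those lower. Fitted on the 6 libraries of this line alone, none of the 4 passed (limma adjusted p 0.0989 for Npnt, 0.174 for Col9a3, 0.3 for Adamts17 and 0.207 for Tnc). With all pairs, Npnt lost its call in this line without the C17.2a 6 h pair (limma adjusted p 0.0599). Col9a3 lost it without the C17.2a 6 or 12 h or the C17.2b 12 h pair (0.0577 to 0.0891), Adamts17 without the C17.2a 6 h or any C17.2b pair (0.0961 to 0.228) and Tnc without any pair other than C17.2a 24 h (0.0642 to 0.136).

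Within the C17.2b line, 4 members were higher and 4 lower with T3, against 2.25% and 0.86% of all genes tested. The higher ones were Npnt at 2.93 (SE 0.26, n = 3 pairs, limma adjusted p 0.00136), Col15a1 at 2.09 (SE 0.27, 0.00597), Adamts2 at 1.57 (SE 0.31, 0.0329) and Adamts17 at 1.24 (SE 0.22, 0.0217). The lower ones were Adam12 at -1.63 (SE 0.28, limma adjusted p 0.0184), Has2 at -1.57 (SE 0.26, 0.0174), Mmp15 at -1.04 (SE 0.18, 0.0205) and Col5a2 at -0.61 (SE 0.11, 0.0209). The spread in this fit is shared by both lines. Without the C17.2a 24 h pair 14 members were higher and 10 lower in C17.2b, against 7.59% and 3.74% of all genes, and the additional calls included Itga7 at 1.28 (SE 0.10), Nid2 at 1.54 (SE 0.13), Col11a2 at 1.83 (SE 0.21), Itgb3 at 0.67 (SE 0.17), Col4a1 at 0.37 (SE 0.10), Tnc at -1.24 (SE 0.17) and Adamts7 at -0.83 (SE 0.17). Npnt kept its call whichever pair was left out. Adam12, Col15a1 and Adamts2 lost theirs without the C17.2b 12 or 24 h pair (limma adjusted p 0.0653 to 0.294), Adamts2 also without the C17.2a 6 or 12 h pair (0.0558 and 0.0719), and the other 4 without any single pair of this line (0.0632 to 0.285).

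No difference between the lines in the response to T3 passed the threshold. The test of the difference, C17.2b minus C17.2a, called 0 members higher and 0 lower, as it did among all genes (0% each way), in limma and with voom on implied tags. At an unadjusted p under 0.05 it gave 5 members higher and 2 lower of 84 in limma, against 449 and 134 of all 10577 genes, so these counts are close to the background. The 5 smallest p belonged to Col15a1 (1.26, SE 0.38), Col9a3 (-0.81, SE 0.29), Col4a1 (0.54, SE 0.22), Itgb3 (1.57, SE 0.65) and Timp1 (0.77, SE 0.32), all with a limma adjusted p of 0.722. The C17.2a 24 h pair gave -2.60 for Itgb3 and -1.12 for Timp1, against 0.07 and -0.01 at 6 h and -0.17 and -0.24 at 12 h in that line. A p that misses the threshold does not show that the lines responded alike.

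Single pairs were described without a test. A member counted where both libraries together held 50 implied tags or more and the ratio reached 2-fold. At 6 h in C17.2b, 9 of 76 members were past it upward and 5 downward, against 3.47% and 1.76% of all genes with enough tags. At 12 h the counts were 7 and 4 of 73, against 3.2% and 1.72%. At 24 h they were 7 and 3 of 72, against 4.94% and 1.86%. The genes past 2-fold upward at all 3 times in this line were Npnt, Col15a1, Adamts17, Itga7 and Nid2, and Adam12 was past it downward at all 3. Has2 and Mmp15 were below it at 6 and 12 h, and Tnc at 12 and 24 h.

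In C17.2a at 6 h 3 of 70 members were past 2-fold upward (Npnt, Col9a3 and Adamts17) and 3 downward (Adamts1, Adamts4 and Nid1), against 2.14% and 1.62% of all genes. At 12 h, 5 and 4 of 73 were, against 2.63% and 1.17%. Those higher were Npnt, Col9a3, Col9a1, Col4a2 and Nid2, and those lower were Tnc, Adam12, Nid1 and Mmp14. Adamts4, an aggrecanase, was below it at 6 h in both lines, with 11.92 RPM in C17.2b and 28.53 RPM in C17.2a with T3, against 25.09 and 59.53 RPM without.

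At 24 h in C17.2a, 5 of 73 members were past 2-fold upward and 23 downward (31.5%), against 6.51% and 19.4% of all genes. This was the pair whose libraries were least alike. The members' median difference there was -0.42, against -0.12 for all genes, and between -0.07 and 0.14 in the other 5 pairs. The largest fall was that of Mmp14, a membrane-anchored collagenase, which had 6.20 RPM with T3 against 152.80 RPM without (-4.42). Col27a1, a fibrillar collagen, had 13.72 against 131.87 RPM (-3.17), Itgb3, the beta chain of vitronectin receptors, 0.83 against 10.10 RPM (-2.60), and the laminin chain Lama4 19.44 against 114.62 RPM (-2.50). In C17.2b at the same time Mmp14 had 98.26 RPM with T3 against 86.54 RPM without, Itgb3 had 13.18 against 7.73 RPM and Lama4 had 110.46 against 123.03 RPM, while Col27a1 was lower there as well, with 108.77 against 205.50 RPM (-0.91).

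The 23 members included 4 of the 8 tested laminin chains (Lama4, Lama5, Lamb1 and Lamb2), 5 Itga chains (Itga3, Itga4, Itga5, Itga6 and Itga7) and both Itgb3 and Itgb5. Of the 8 laminin chains, Lamb3 held too few tags to count here (12 with T3 and 11 without). The matrix protein Sparc had 949.70 RPM with T3 against 2754.33 RPM without. The 5 members that were higher were Adamts14, Adamts17, Col15a1, Col9a3 and Mmp16, a membrane-anchored relative of Mmp14, and the first 4 of these also passed for the shared response. With 1 library per group, a property of 1 of these libraries and a response at this time cannot be told apart.

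**Figure D3:**
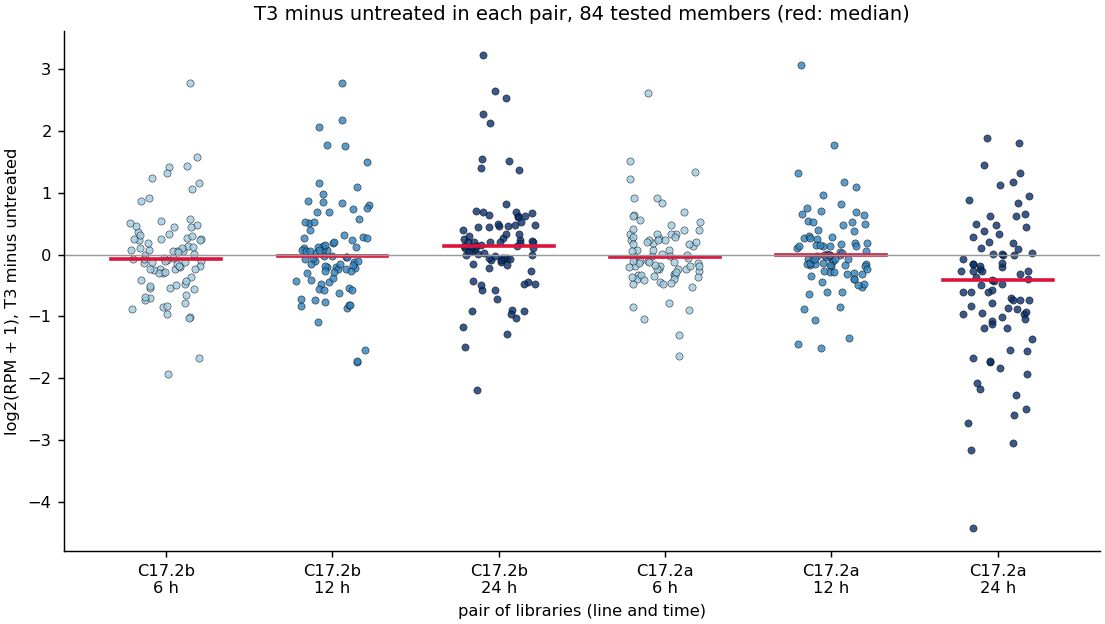
Log2 difference of T3 minus untreated on log2(RPM + 1) for the 84 tested members in each of the 6 pairs, 1 point per gene, with the median in red. The points spread furthest downward in the C17.2a 24 h pair, where the median was -0.42, and the medians of the other pairs lay between -0.07 and 0.14.

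Genes that act with the members were read from further lists, beside which 4.09% of all genes tested rose and 2.35% fell, with a median of -0.0071. Of 21 tested enzymes that fold, modify or trim procollagen, 5 rose with T3 and 0 fell, with a median of 0.181. They were Pcolce2 at 1.15 (SE 0.13, limma adjusted p 0.00138), which enhances removal of the carboxyl propeptide, the prolyl hydroxylase subunit P4ha2 at 0.87 (SE 0.12, 0.00418), the prolyl hydroxylase Leprel1 (1.18, SE 0.19, 0.00693), and the lysyl hydroxylases Plod2 (1.01, SE 0.21, 0.0228) and Plod1 (0.84, SE 0.19, 0.033). P4ha2 had 282.07, 300.75 and 263.66 RPM in C17.2b and 249.27, 273.54 and 304.40 RPM in C17.2a with T3, against 170.39, 155.78 and 171.45 RPM and 155.33, 163.54 and 106.97 RPM without, with no overlap. Adamts2 and Adamts14, which trim the same proteins, rose as given above, while Col1a1 and Col3a1 did not pass.

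Of 36 tested structural matrix proteins outside the symbol patterns, 0 rose and 4 fell, with a median of -0.136. Postn, periostin, which like tenascin C is a matricellular protein, fell most, by 1.15 (SE 0.14, limma adjusted p 0.00233), and had 266 to 694 RPM with T3, against 658.7 to 1569 RPM without. The others were Egflam at -0.77 (SE 0.16, limma adjusted p 0.0223), Fstl1 at -0.41 (SE 0.09, 0.0313) and Ltbp1 at -0.71 (SE 0.18, 0.0494). Of 29 focal adhesion and adaptor genes, 1 rose and 3 fell, among them vinculin (Vcl) at -0.51 (SE 0.08, limma adjusted p 0.00591) and filamin (Flna) at -0.51 (SE 0.12, 0.0322), with Tns1 at 0.54 (SE 0.11, 0.0211).

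Of 8 hyaluronan genes 1 rose and 1 fell. Ugdh, which makes a sugar precursor of hyaluronan, differed by 0.61 (SE 0.08, limma adjusted p 0.00385), and the hyaluronan-binding Tnfaip6 by -0.85 (SE 0.15, 0.011). Of 22 other proteases and inhibitors 2 rose and 2 fell, with the membrane inhibitor of metalloproteases Reck at 1.42 (SE 0.13, limma adjusted p 0.000555), Adam23 at 1.06 (SE 0.22, 0.0197), the serine protease inhibitor Serpine2 at -1.25 (SE 0.22, 0.0117) and Adamtsl1 at -1.38 (SE 0.25, 0.0127). Of 18 TGF-beta pathway genes, which include known regulators of matrix genes, 4 rose and 3 fell, with Skil at 0.87 (SE 0.14, limma adjusted p 0.00708), Bambi at -0.86 (SE 0.15, 0.00912), Tgfb2 at -0.80 (SE 0.15, 0.0159) and Tgfbr3 at 0.71 (SE 0.14, 0.0175), and with Ltbp1 on this list too. Markers moved as well: of 9 tested progenitor markers 1 rose and 3 fell with T3, with Vim at -1.04 (SE 0.16, limma adjusted p 0.00591) and Sox2 at -1.12 (SE 0.18, 0.00663), and of 5 mesenchymal markers 0 rose and 0 fell. Of 3 neuron markers 2 fell, of 3 astrocyte markers 1 rose, and of 5 oligodendrocyte markers 1 rose. The summed level of the progenitor markers was 1420 to 3142 RPM with T3, against 2371 to 5824 RPM without, most of it from Vim, and their part in the results was not tested.

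Without T3 the lines differed in many members. Against C17.2a, C17.2b had 11 members higher and 18 lower of 79 tested (limma, time as a block), or 13.9% and 22.8%, against 2.93% and 5.92% of all 10192 genes tested. The sign was the same at all 3 times for each of the 29. The higher ones were Col15a1, Col28a1, Mmp17, Col27a1, Loxl3, Adamts17, Tnc, Itga6, Col4a2, Col16a1 and Col5a2. The lower ones were fibrillar collagens (Col1a1, Col3a1 and Col5a3), other collagen chains (Col4a5, Col8a1 and Col12a1), 3 of 5 lysyl oxidases (Lox, Loxl1 and Loxl4), the proteases Adamts2, Adamts4, Adamts5 and Mmp14, the integrin chains Itga3, Itga7 and Itgb5, the inhibitor Timp1 and Fn1. No laminin chain was among them.

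Col15a1 stood highest, at 2.51 (SE 0.20, n = 3 times, limma adjusted p 0.000114), from the untreated values given above. Loxl3 had 44.89, 54.53 and 52.63 RPM in C17.2b at 6, 12 and 24 h, against 23.12, 30.56 and 22.35 RPM in C17.2a, a difference of 0.98 (SE 0.14, limma adjusted p 0.00212). Loxl2 did not pass, with 28.27, 25.53 and 65.74 RPM in C17.2b, against 30.01, 24.27 and 65.76 RPM in C17.2a. Lox, Loxl1 and Loxl4 ran the opposite way to Loxl3. Loxl1, which cross-links elastin, had 5.45, 6.37 and 12.34 RPM in C17.2b, against 15.93, 20.34 and 35.32 RPM in C17.2a, or -1.46 (SE 0.16, limma adjusted p 0.000596), and Loxl4 had 3.77, 4.48 and 4.07 RPM against 9.74, 16.08 and 12.45 RPM, or -1.41 (SE 0.19, limma adjusted p 0.00156). Loxl3 overlaps Htra2 and its tags may not all be its own.

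Col1a1, the main chain of the collagen of skin and bone, had 920.33, 914.34 and 1740.28 RPM in C17.2b, against 2208.07, 2589.47 and 3778.18 RPM in C17.2a, a difference of -1.29 (SE 0.19, limma adjusted p 0.00248). Its partner Col1a2 did not pass. Fn1 had 382.41, 487.80 and 193.43 RPM in C17.2b, against 730.87, 736.96 and 829.11 RPM in C17.2a, or -1.21 (SE 0.24, limma adjusted p 0.0137). The groups did not overlap for either gene.

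Adamts2 had the lowest difference, at -1.55 (SE 0.19, limma adjusted p 0.00117), with 3.72, 2.42 and 9.63 RPM in C17.2b, against 9.51, 10.66 and 34.19 RPM in C17.2a. Col4a5, a basement membrane chain, had 14.82, 12.02 and 16.96 RPM, against 43.92, 38.29 and 43.69 RPM (-1.47, SE 0.14, limma adjusted p 0.000334), while Col4a2 was higher, at 0.59 (SE 0.12, limma adjusted p 0.0146). Itga6 and Itga7, alpha chains of laminin receptors, went in opposite directions. Itga6 had 10.11, 6.10 and 9.09 RPM in C17.2b, against 5.49, 3.20 and 5.10 RPM in C17.2a (0.75, SE 0.18, limma adjusted p 0.0281), and Itga7 differed by -1.22 (SE 0.15, limma adjusted p 0.00102). With all 12 libraries fitted, T3 and time as covariates, Itga7 stood at -0.30 (limma adjusted p 0.769), Itga3 at -0.39 (0.504) and Timp1 at -0.54 (0.108), and Mmp14 turned to 0.28 (0.793), so that these 4 calls ended.

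Calls near the threshold depended on a time. Without the 6 h libraries Col3a1, Col5a2, Col4a2, Col16a1, Itga3, Itga6, Lox and Mmp14 lost their call (limma adjusted p 0.0561 to 0.329), without those of 12 h Adamts5, Col16a1, Col3a1, Col4a2, Col5a2 and Itga6 did (0.0568 to 0.0909), and without those of 24 h Itga3 and Mmp14 did (0.115 and 0.083). Without time as a block 0 members passed in either direction. Each line is 1 stable line, so these differences cannot be assigned to the receptor it carries.

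**Figure D4:**
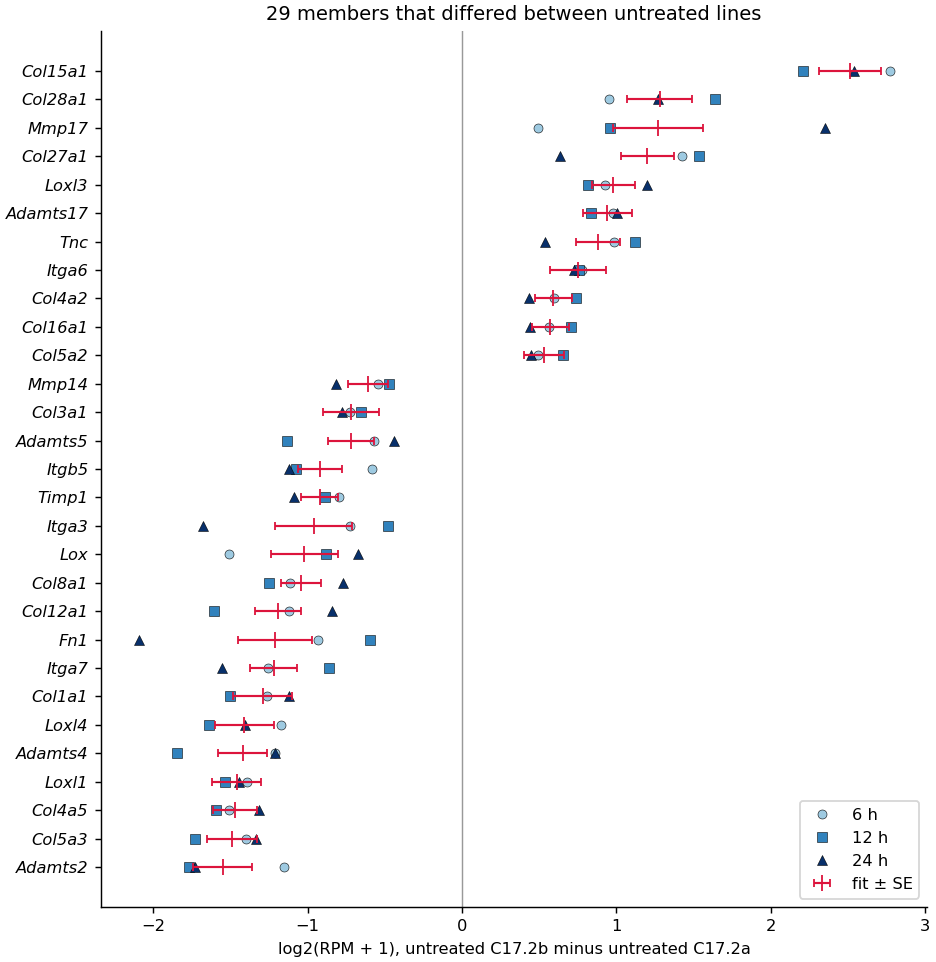
Difference of untreated C17.2b minus untreated C17.2a on log2(RPM + 1) for the 29 members past the threshold, with 1 point for each time and the fitted value with its SE in red. All points of a gene lie on 1 side of 0, with Col15a1 furthest right at 2.51 and Adamts2 furthest left at -1.55.

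Markers and related lists moved with the line too, beside 2.93% of all genes higher and 5.92% lower. Of 33 tested structural matrix proteins outside the patterns 3 were higher and 14 lower in C17.2b, with Wisp2 at -3.32 (SE 0.20, limma adjusted p 3.62e-05), the small proteoglycan Ogn at -2.42 (SE 0.16, 5.72e-05), Fstl1 at -1.45 (SE 0.13, 0.000241) and Egflam at 1.87 (SE 0.18, 0.000288). Of 21 procollagen enzymes 0 were higher and 5 lower, including Pcolce at -1.16 (SE 0.14, limma adjusted p 0.000952). The counts were 3 higher and 3 lower of 29 focal adhesion genes, 0 and 0 of 8 hyaluronan genes, 4 and 7 of 22 other proteases and inhibitors, and 0 and 1 of 17 TGF-beta pathway genes. Of 5 tested mesenchymal markers 1, Pdgfra, was lower (-0.77, SE 0.19, limma adjusted p 0.0353) and 0 were higher, and their summed level was 1294 to 2336 RPM in C17.2b, against 2691 to 3514 RPM in C17.2a. Most of that sum was S100a4, with 1173.53 to 2242.57 RPM in C17.2b against 2565.09 to 3187.20 RPM in C17.2a, which did not pass (-0.69, SE 0.26, limma adjusted p 0.144), and Pdgfrb had 21.89, 23.50 and 25.91 RPM in C17.2b against 19.33, 18.92 and 51.44 RPM in C17.2a. Thy1 stayed below 1 RPM in both. Of 8 tested progenitor markers 3 were higher in C17.2b, with Fabp7 at 2.02 (SE 0.19, limma adjusted p 0.000344), 2 of 5 oligodendrocyte markers were, with Sox10 at 0.72 (SE 0.15, limma adjusted p 0.0149), and 1 of 3 neuron markers was, with 0 of 2 astrocyte markers in either direction. The part of these markers in the members' differences was not tested.

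The comparisons of T3 with untreated cells and of the untreated lines share the untreated libraries, and 5 members passed in both. The share of all genes that passed in both was not taken, so this count is a description only. Adamts17 and Col15a1 were higher with T3 and higher in untreated C17.2b, Tnc and Col5a2 were lower with T3 and higher in untreated C17.2b, and Adamts2 was higher with T3 and lower in untreated C17.2b.

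Untreated cells also differed by time, which was time without serum as well. Untreated cells at 24 h were set against those at 6 h with line as a block, so the 2 lines were the only repeats. In this test 44 of 79 members were higher and 9 lower (limma adjusted p under 0.05), against 43% and 13.1% of all genes. The deposited scale itself moved: the median of all genes was 0.40, and -0.0176 after median-ratio scaling, which gave 27 members higher and 17 lower, against 24.4% and 26.3% of all genes. The values below are as deposited, followed by those after that scaling.

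Mmp14 had 18.91, 22.51 and 86.54 RPM in untreated C17.2b at 6, 12 and 24 h, and 27.99, 31.62 and 152.80 RPM in untreated C17.2a. Its difference of 2.27 (SE 0.16, limma adjusted p 1.61e-05) was 1.81 after scaling. Itgb5, a beta chain that pairs with Itgav, had 27.08, 27.98 and 99.29 RPM in C17.2b and 40.98, 59.96 and 216.90 RPM in C17.2a (2.11, SE 0.17, and 1.64 after scaling). For both genes the 24 h libraries stood above all earlier untreated ones. Tnc differed by 2.17 (SE 0.17) and 1.70, Itgb3 by 2.34 (SE 0.28) and 1.99, and Timp2, which inhibits metalloproteases and helps Mmp14 activate Mmp2, by 1.61 (SE 0.16) and 1.14.

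In the other direction Timp1 had 66.21, 63.14 and 24.55 RPM in untreated C17.2b and 115.66, 117.79 and 53.28 RPM in untreated C17.2a (-1.25, SE 0.15, and -1.71 after scaling). Col19a1 had 174.52, 204.84 and 69.04 RPM in C17.2b and 168.94, 199.07 and 44.40 RPM in C17.2a (-1.61, SE 0.18, and -2.08). Mmp8, the neutrophil collagenase, differed by -1.31 (SE 0.18) and -1.78, and Itgb4, the beta chain that pairs with Itga6, by -0.97 (SE 0.30) and -1.44. Over all 12 libraries with T3 included, these 4 genes had every 24 h library below every earlier one, 4.35% of the 92 members that reached 1 RPM, against 6.33% of all 11079 such genes. For 16 members (17.4%) every 24 h library was above, against 25.6% of all genes.

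**Figure D5:**
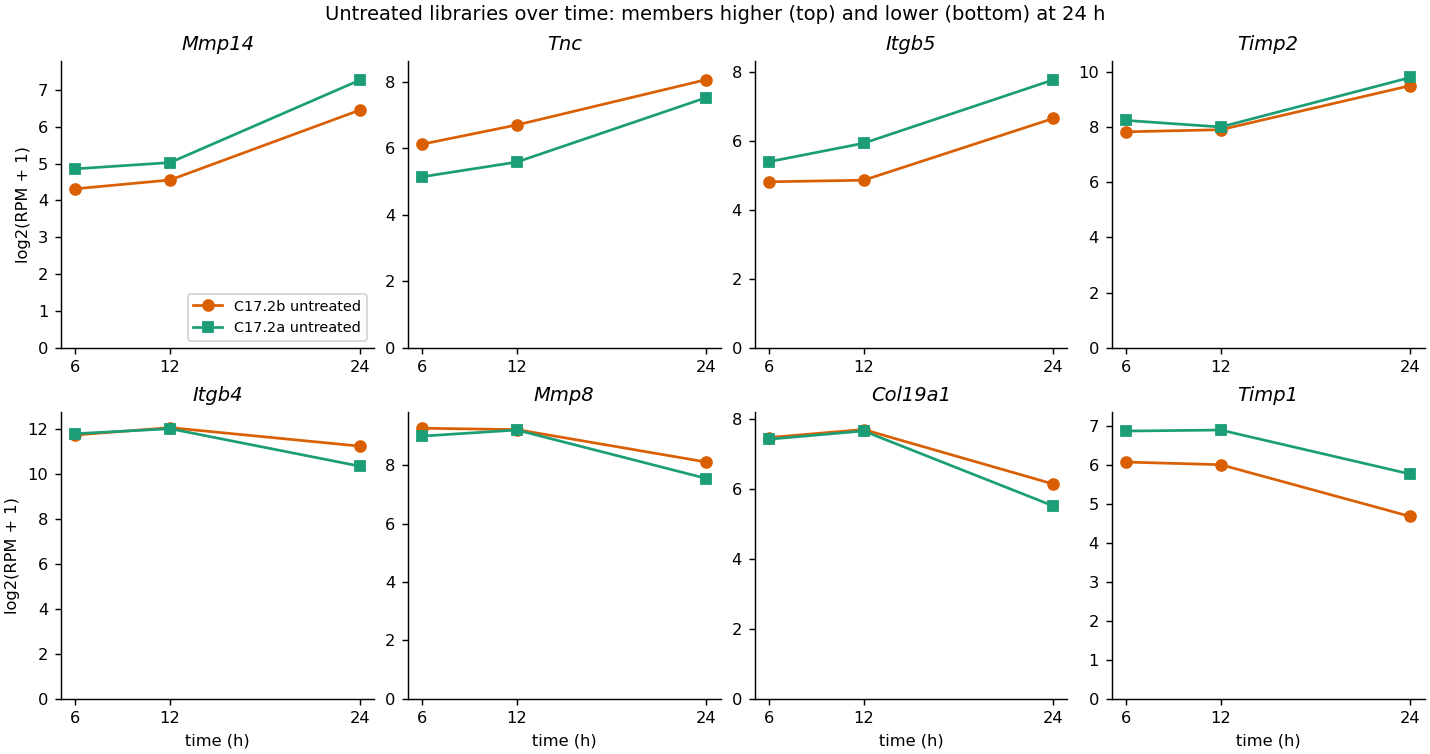
Levels of 8 members in the untreated libraries at 6, 12 and 24 h, as log2(RPM + 1) on an axis from 0, with 1 library per point, C17.2b in orange and C17.2a in green. Mmp14, Tnc, Itgb5 and Timp2 (top) stood higher at 24 h, and Itgb4, Mmp8, Col19a1 and Timp1 (bottom) lower, in both lines.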

How the data were processed

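The authors deposited 1 table of RPM values (tags of a gene scaled to 1e+06 per library) with 12 columns, which sum to that total. The build was mm9, per the submitters' processing notes, while the aligner, the counting and the use of strand are not given in the sources used here. Besides the overlaps named above, further members overlap a gene on the opposite strand, among them Adamts7 (Tbc1d2b) and Itgb1bp1 (Asap2). Their tags may not all be their own. N/A entries were read as 0. Low values gave the worth of 1 tag, but only 90% to 93.8% of them were whole within 0.0055 RPM, so whole reads were not taken as recovered, and implied tags served for voom as an alternative.

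Values were set on log2(RPM + 1) and fitted with limma 3.58.1 in R 4.3.3, with a trended variance and Benjamini-Hochberg adjustment over all genes tested, after a filter of 1 RPM in 3 libraries. Blocks were the 6 pairs of same line and time (T3), the time (lines) or the line (24 h against 6 h). The fits were tested on simulated data. Alternatives were another scaling, filter, pseudocount, block, voom weights on implied tags, and leaving out pairs or times. Single pairs were ratios with 2 tags added.

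The text names the 8 single genes, the members past the threshold in each comparison (the extremes where over 24), the 5 smallest p between lines, leading members per pair and family, and up to 4 genes of each further list. Members, lists and rules were chosen with earlier results of these data known. Promoters are from RefSeq (GRCm38.p6).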

Additional observations from a re-analysis of the deposited data

How the results depend on the processing

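Each condition is 1 library, and spread is known only from pairs (T3), times (untreated lines) or lines (24 h against 6 h). Without the pair block, 5 members were higher and 2 lower for the shared T3 response, 2 higher and 0 lower in C17.2b, and 0 lower in C17.2a. Leaving out single pairs gave 4 to 12 members higher and 4 to 11 lower for the shared response, 0 to 7 and 0 to 4 in C17.2a, and 1 to 14 and 0 to 10 in C17.2b. With the libraries of 1 line alone, C17.2a had 0 higher and 0 lower and C17.2b had 12 higher and 11 lower. In C17.2a, 0 members were lower with no filter, 2 with a pseudocount of 0.5 and 0 with a pseudocount of 5. For untreated C17.2b against C17.2a, 0 members were higher and 0 lower without the time block, and leaving out a time gave 7 to 17 higher and 14 to 20 lower. Mmp14 stood at 0.28 (limma adjusted p 0.793) with all 12 libraries, where it was -0.61 in the untreated ones. For 24 h against 6 h, 27 members were higher and 17 lower with median-ratio scaling, 4 were lower with hours as a number, and Col4a2 stood at -0.04 (limma adjusted p 0.828) with that scaling. In single pairs, median-ratio scaling gave 7 members lower in C17.2b at 24 h, and 5 higher and 1 lower in C17.2a at 6 h, where a limit of 20 implied tags gave 5 higher. Shares of all genes, given above, were taken for the main settings, without the C17.2a 24 h pair, and for median-ratio scaling over time. For the other settings none was taken, so those counts describe the members alone. A change in calls among all genes cannot be told apart from one among the members there. The causes were not tested.

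Of the alternatives run on single named genes, 155 kept and 51 lost the call for the shared response, 31 and 25 in C17.2a, 82 and 29 in C17.2b, 257 and 57 between untreated lines, and 329 and 32 between 24 and 6 h, besides the 2 reversals above. Npnt, Adamts17 and Has2 kept theirs in every alternative run for the shared response, while Adamts2 kept 4 of 13 and Col11a2 5 of 12. Genes near 3 tags, such as Npnt without T3 and Has2 with T3, are limited by depth.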

Other observations

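The chains of collagens II, IX and XI, which share fibrils in cartilage and the vitreous, were looked at together after their values were seen. Col2a1 had 0.11, 0.62 and 3.36 RPM in C17.2b with T3 at 6, 12 and 24 h, against 0.05, 0 and 0.27 RPM without, and 0.50, 0.99 and 1.67 RPM in C17.2a with T3, against 0.08, 0 and 0.20 RPM without. By RPM it was higher with T3 in every pair, but in the C17.2b 6 h pair each library held 1 implied tag. Col2a1 was too scarce to be tested. Col9a2 stayed at 0.56 RPM or less in every library. Col9a1 had 5.32, 9.92 and 2.24 RPM in C17.2b with T3, against 3.67, 2.24 and 1.76 RPM without, and in C17.2a 1.29, 3.04 and 2.03 RPM with T3, against 1.70, 1.07 and 1.33 RPM without. Col11a1, the partner chain of Col11a2, had 0.36 to 1.60 RPM with T3, against 0.92 to 3.51 RPM without, and did not pass the test.

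Mmp9, a gelatinase, had 0.11, 1.51 and 4.77 RPM in C17.2b with T3, against 0.05, 0.18 and 0 RPM without, and 0.20, 0.85 and 1.31 RPM in C17.2a with T3, against 0.15, 0.09 and 0.20 RPM without. By RPM it was higher in every pair, but at 6 h the implied tags were equal with and without T3. They were 1 and 1 in C17.2b and 2 and 2 in C17.2a, below the limit of detection. The shared log2 difference of Mmp9 was 0.91 (SE 0.30, limma adjusted p 0.133). Mmp9 reached 1 RPM in libraries with T3 alone and entered the test through them. The RPM ratio of Itgb4 to Mmp8 stayed between 5.48 and 8.70 over all 12 libraries, and both genes were lower in each 24 h library than in any earlier one. That of Col19a1 to Mmp8 stayed between 0.239 and 0.443. Itgb4 had 1292.34 to 4237.19 RPM, against 0.36 to 14.15 RPM for Itga6, the alpha chain it pairs with. Whether the tags of Itgb4, Mmp8 and Col19a1 are all their own was not tested.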
